A study of Caenorhabditis elegans with 2 samples.

Results

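The genes described here encode the 2 rotary ATPases of Caenorhabditis elegans, the mitochondrial ATP synthase (F-type) and the vacuolar ATPase (V-type), at whose promoters peaks of the protein ZK546.5 were looked up. Members were the protein-coding genes of the Ensembl annotation whose names begin with vha-, asb-, asg- or atp- and a digit. This gave 29 of 19985 protein-coding genes, 9 of them F-type and 20 V-type. Chromatin immunoprecipitation followed by sequencing had been carried out on whole L2 larvae of mixed sex, strain OP231, which carries the unc-119(ed3) allele and the insertion wgIs231, from which ZK546.5 is expressed with GFP and FLAG fused to its C-terminus. There are 2 biological replicates and no second condition, so the data locate the tagged protein and no group can be set against another. Whole larvae mix all tissues. The labels name the antibody by its target, and do not state the promoter, copy number or level of the tagged protein.

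Both enzymes couple a spinning rotor in a membrane to a catalytic head outside it. In the ATP synthase, protons that flow through the inner mitochondrial membrane turn the rotor, and the alpha and beta subunits of the head make ATP while a peripheral stalk holds the head still. The vacuolar ATPase runs the other way: its cytosolic part (V1) hydrolyses ATP and its membrane part (V0) pumps protons into lysosomes, endosomes and other compartments. The ATP synthase is needed in nearly every cell, whereas worm V-ATPase subunits with several gene copies include forms used mainly in single tissues, such as vha-6 in the intestine.

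The sequences under the summits are shown first for 5 of the 7 members with a summit in the thresholded list. The authors derived this list by a test of agreement between replicates (the irreproducible discovery rate, IDR). Each line gives the 101 bases centred on the summit, read from the WBcel235 genome in the direction of the gene. The genes shown are atp-2 at chrIII:5228143-5228243, vha-1 at chrIII:9780743-9780843, vha-8 at chrIV:6790592-6790692, vha-12 at chrX:4190709-4190809 and vha-15 at chrX:2237579-2237679, all on the plus strand of the build. The windows of atp-1 and atp-3 are not printed here. Also shown are the windows of Y82E9BR.3, which encodes the c subunit of the ATP synthase rotor, at chrIII:1418848-1418948, and of R04F11.2, which encodes its subunit e, at chrV:12318269-12318369, both on the plus strand and both outside the name rule. Capitals mark, on either strand, the 6 words of 6 bases that were most over-represented at the other thresholded promoter summits, as described further on.
atp-2: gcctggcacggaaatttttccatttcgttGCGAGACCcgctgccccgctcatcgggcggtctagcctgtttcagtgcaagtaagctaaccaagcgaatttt
vha-15: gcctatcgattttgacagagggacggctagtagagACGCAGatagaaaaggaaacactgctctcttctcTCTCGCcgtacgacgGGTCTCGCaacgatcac
vha-8: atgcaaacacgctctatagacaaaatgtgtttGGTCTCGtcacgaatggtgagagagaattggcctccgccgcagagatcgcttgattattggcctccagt
vha-12: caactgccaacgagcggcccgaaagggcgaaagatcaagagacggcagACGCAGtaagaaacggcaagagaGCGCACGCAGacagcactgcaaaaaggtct
vha-1: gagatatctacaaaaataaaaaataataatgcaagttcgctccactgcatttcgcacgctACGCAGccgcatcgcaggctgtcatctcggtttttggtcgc
Y82E9BR.3: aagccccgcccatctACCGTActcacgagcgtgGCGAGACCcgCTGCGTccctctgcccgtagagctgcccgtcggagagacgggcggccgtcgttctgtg
R04F11.2: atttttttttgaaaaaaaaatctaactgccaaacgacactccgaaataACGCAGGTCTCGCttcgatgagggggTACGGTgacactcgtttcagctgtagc
The window of atp-2 and that of vha-15, read on its other strand, share a run of 15 bases, tcgttgcgagacccg, although the genes lie on different chromosomes and belong to different enzymes. The windows of atp-2 and Y82E9BR.3 share 14 bases, gcgagacccgctgc. All 3 of these windows hold gcgagacccg. This 10-base run, on either strand, was present in 17 of 384 other thresholded promoter summits, that of Y82E9BR.3 included, and in 9 of 8717 promoter summits below the threshold, and it occurs 328 times in the genome. The 15-base run occurs 20 times in the genome, and 1 other thresholded summit and 1 summit below the threshold held it. These runs were noticed in the sequences and carry no test.

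A summit counted for a gene when it lay within 1000 bp upstream to 200 bp downstream of any annotated 5' end. On the ce11 build the thresholded list held 491 peaks, with a lowest signal of 45.93. These were also the 491 strongest of the 30000 in the pooled list. A place in the thresholded list therefore does not show that the replicates agreed on that peak. The peak of atp-2, for example, ranked 362 in replicate 1 and 3346 in replicate 2. The list of replicate 1 held 19076 peaks and that of replicate 2 held 30000. The signal is the authors' own value for each peak, taken here to be relative to a control library. It ranks peaks within its list and has no shared scale between lists. Positions are given relative to the nearest annotated 5' end, with upstream negative. Sequencing depth was not recorded in the files.

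ZK546.5 peaks were found at 7 of the 29 rotary ATPase genes, namely atp-1, atp-2 and atp-3 of the ATP synthase and vha-1, vha-8, vha-12 and vha-15 of the vacuolar ATPase. That is 24.1% of the members, where 2.89% of all protein-coding genes had a thresholded summit. Among genes with any pooled summit in their window, 7 of 22 members (31.8%) had a thresholded one, against 7.08% of all 8159 such genes. The 7 members had 7 different peaks. F-type genes were represented at 3 of 9 (33.3%) and V-type genes at 4 of 20 (20%). This difference amounts to few genes, was not tested, and turns round with replicate 2 alone: among the strongest 491 peaks of its own list were those of 1 F-type gene and 4 V-type genes, while those of replicate 1 held 3 of each. No list for another factor was used here, and whether these promoters also carry peaks of other proteins was not tested.

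**Figure D1:**
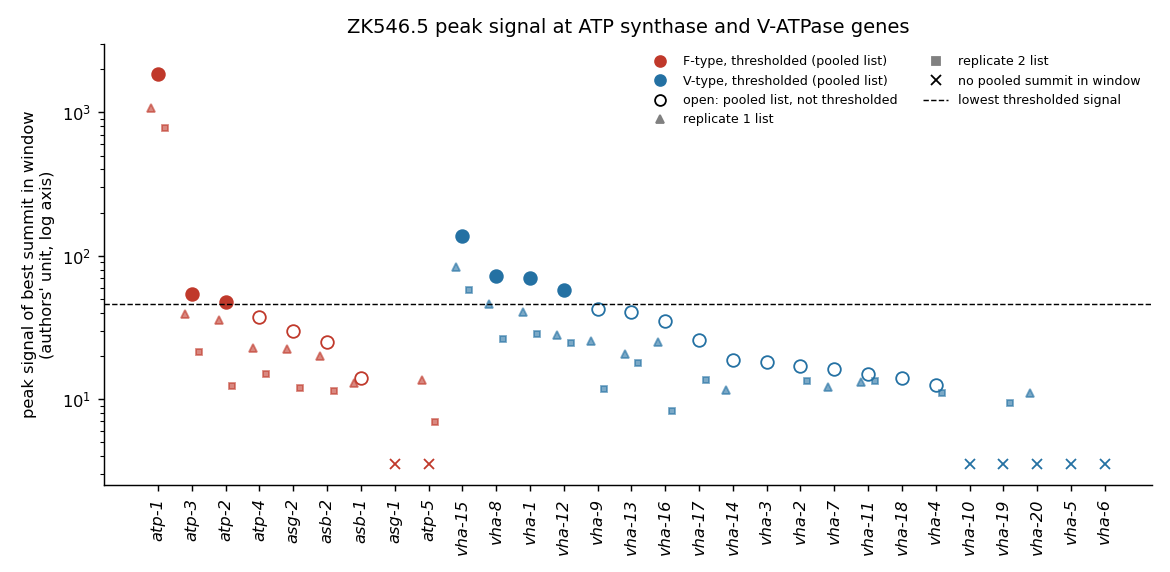
Peak signal (authors' unit, log axis) of the best summit in the window of each of the 29 genes, in the pooled list (circles, filled where thresholded), the list of replicate 1 (triangles) and that of replicate 2 (squares); the dashed line is the lowest thresholded signal, 45.93, and crosses mark genes with no pooled summit. The gene atp-1 stands at 1840, far above the other 28, of which vha-15 at 137 is the highest.

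By far the strongest member peak was at atp-1, which encodes the alpha subunit of the ATP synthase head. Its signal was 1075 in replicate 1, 772 in replicate 2 and 1840 in the pooled list, and it ranked 11, 9 and 10 in them. The peak spanned chromosome I 12652074 to 12652516 (ce11), was 443 bp wide, and had its summit at -8 bp, in no annotated gene. The divergent gene mcrs-1, 189 bp away, has the same summit at -182 bp. The second highest member, vha-15, had a pooled signal of 137, so the peak of atp-1 is set apart from the others in all 3 lists.

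Among the members, the other ATP synthase peaks, at atp-3 and atp-2, lay below the thresholded list's median signal of 74.56. At atp-3, which encodes the oligomycin sensitivity conferring protein of the peripheral stalk, the signal was 38.96 in replicate 1, 21.28 in replicate 2 and 54.51 pooled, at ranks 318, 492 and 389. The summit was at -24 bp from the nearest of its 4 annotated 5' ends, in an exon of the non-coding gene F27C1.17, and at -225 bp from the divergent gene F27C1.2. The gene atp-2, for the catalytic beta subunit, had a signal of 35.39 in replicate 1, 12.31 in replicate 2 and 47.28 pooled. Its ranks of 362 and 3346 in the replicate lists lay far apart, and its pooled rank of 474 was close to the end of the list. The summit was at -224 bp from atp-2 and at -309 and -312 bp from C34E10.10 and C34E10.12 on the other strand. The genes for both subunits that form the catalytic sites thus had a peak, but with signals that differ by a large factor in each list.

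The 4 V-type peaks had pooled signals from 57.35 to 137, and 3 of them lay below the thresholded list's median of 74.56. The highest, at vha-15, which encodes the H subunit of V1, had a signal of 83.95 in replicate 1, 57.46 in replicate 2 and 137 pooled, and ranked 121, 125 and 127. The peak at vha-8, for the E subunit of the V1 stalk, had 46.15, 26.35 and 72.12 in the same order, at ranks 242, 328 and 271. That of vha-1, a gene for the proton-carrying c subunit of V0, had 40.4, 28.31 and 70.43, at ranks 295, 301 and 277. At vha-12, for the nucleotide-binding B subunit of V1, the values were 27.87, 24.52 and 57.35 and the ranks 553, 380 and 366. All 4 lay in intergenic sequence. The summits of vha-15 and vha-12 had no other coding gene in reach, and were at -282 and -335 bp. The summit of vha-8 was at -432 bp from its own 5' end and at -154 bp from the divergent gene C17H12.2. The summit of vha-1 was at -461 bp from vha-1 and at -439 bp from the divergent gene sqv-3, a glycosyltransferase gene. With each summit given only to the nearest coding 5' end, V-type genes therefore kept 2 of 4, and F-type genes all 3.

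Seen by their place in the complexes, the peaks were at both member genes of the F1 catalytic head, at 1 of 5 genes of the peripheral stalk and at neither gene for subunit g. In the vacuolar ATPase 3 of 9 genes of V1 and 1 of 9 of V0 had one, and neither of the accessory subunit genes vha-19 and vha-20. The A subunit gene vha-13, whose product forms the catalytic sites together with that of vha-12, was below the threshold.

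Below the threshold the order continued without a gap. The 3 members next in line were vha-9, for the F subunit of V1, with a pooled signal of 42.45 at rank 553, vha-13 with 40.55 at rank 592 and atp-4, for coupling factor 6 of the peripheral stalk, with 37.3 at rank 703. In replicate 1 these had 25.37, 20.74 and 22.71 and in replicate 2 11.84, 17.76 and 15.02. The summits of vha-13 and atp-4 lay in exons of their upstream neighbours cept-2 and alh-4. Up to pooled rank 1000 the members numbered 11 of 29, with 4 of 9 F-type genes (44.4%) and 7 of 20 V-type genes (35%), against 4.81% of all coding genes. The other gene that this adds is vha-16, for the d subunit of V0, with 34.95 at rank 822. In the whole pooled list 7 F-type genes (77.8%) and 15 V-type genes (75%) had a summit, where 40.8% of all coding genes had one. The authors name this list peaks and background, so a summit in its lower part is not called a peak here.

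**Figure D2:**
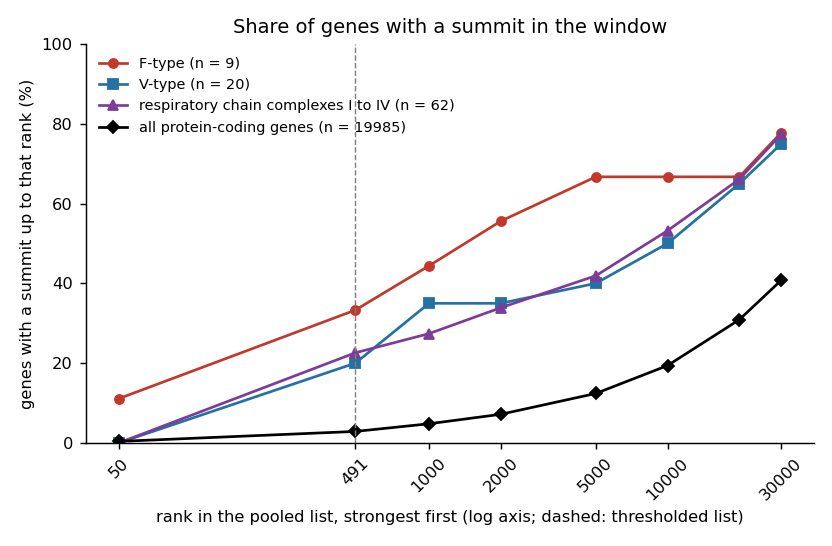
Share of genes (%) with a summit in the window at or above a given rank in the pooled list (log axis). Shown are the F-type genes, V-type genes, genes matched by names used for respiratory chain complexes I to IV and all protein-coding genes. At the dashed line, the length of the thresholded list, the shares are 33.3, 20, 22.6 and 2.89%; at rank 30000 they are 77.8, 75, 77.4 and 40.8%.

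The remaining 11 members with a pooled summit had signals from 12.54 at vha-4, the gene for the c'' subunit, to 29.94 at asg-2, a gene for subunit g. Between them were asb-2 at 24.89 and asb-1 at 13.97, the genes for the ATP synthase b subunit, of which asb-1 is the form of the germline. Of the c subunit genes, vha-3 had 18.13 and vha-2 17.14, where vha-1 had 70.43. The H subunit copy vha-18 had 13.97, where vha-15 had 137, and the summit in its window was closer to pos-1. The others were vha-17 for subunit e at 25.92, vha-14 for subunit D at 18.72, the a subunit gene vha-7 at 16.35 and vha-11 for subunit C at 15.07. In the paralogue groups b, g, c, H and a, no more than 1 gene each had a thresholded summit, and in b, g and a none did.

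No pooled summit was found in the windows of asg-1, atp-5, vha-5, vha-6, vha-10, vha-19 and vha-20. Of these, atp-5, for subunit d, had 13.55 in replicate 1 and 6.92 in replicate 2 at places 931 bp apart, vha-20 had 11.1 in replicate 1 only and vha-19 had 9.37 in replicate 2 only. The 4 others had none in any list, namely asg-1, the a subunit genes vha-5 and vha-6, and vha-10 for subunit G of the V1 stalk. Their nearest pooled summits were at 646 bp from the 5' end of asg-1, -7252 bp from vha-5, -1708 bp from vha-6 and 1072 bp from vha-10. Across all coding genes 42.7% had a summit in none of the lists, against 13.8% of the members.

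**Figure D3:**
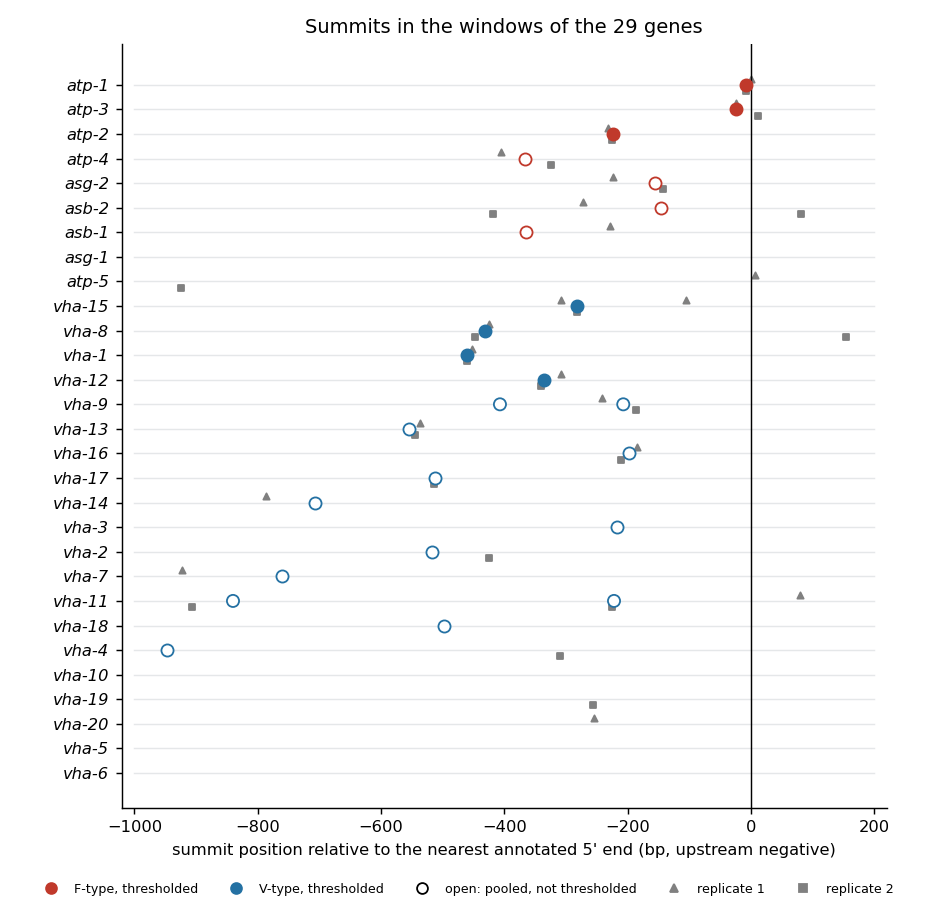
Position of every summit in the windows of the 29 genes relative to the nearest annotated 5' end (bp, upstream negative), with pooled summits as circles (filled for the thresholded summit), replicate 1 as triangles and replicate 2 as squares. The thresholded summits of atp-1 and atp-3 lie at -8 and -24 bp, while those of the V-type genes lie between -461 and -282 bp.

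Where the summit lay differed between the members. The thresholded summits of atp-1 and atp-3 were close to the annotated 5' end, and that of atp-2 was at -224 bp. The 4 V-type summits were at -282, -335, -432 and -461 bp, all further upstream than those of the 3 F-type members. The ATP synthase genes outside the name rule were split: Y82E9BR.3 had its summit at -298 bp, further upstream than vha-15, and R04F11.2 at -62 bp. The summits of vha-8 and vha-1 were also nearer to divergent genes, at -154 bp from C17H12.2 and -439 bp from sqv-3. The median position over all 578 coding genes with a thresholded summit was -234 bp, and 99 of these genes (17.1%) had it within 100 bp of a 5' end. Trans-splicing removes the start of many worm messages, and how far transcription begins from each annotated 5' end is not known here. The positions were not tested.

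Each thresholded member had a divergent upstream neighbour within 1000 bp or no upstream coding gene that close. Of 12 members whose nearest upstream coding gene was divergent and began within 1000 bp, 5 had a thresholded summit (41.7%). These were atp-1, atp-2, atp-3, vha-1 and vha-8, but the summits of vha-1 and vha-8 were nearer to the neighbour's 5' end. No thresholded summit was found at the 10 members whose nearest upstream coding gene ended within 1000 bp on the same strand. This layout includes downstream genes of worm operons. Among all coding genes the shares were 8.82% of 3503 and 2.14% of 5701. At a share as low as the second, none among 10 genes says little about the members. Within the vacuolar ATPase the same-strand layout was that of vha-2, which starts 400 bp behind the end of vha-1. It was also that of vha-11, which starts 892 bp behind the end of vha-3. A window of 2000 bp upstream would add vha-2 to the genes with a thresholded summit. The 4 members with no summit in any list differed in layout. On the same strand, vha-10 begins 103 bp behind trpp-8, vha-6 724 bp behind VW02B12L.2 and vha-5 2802 bp behind F35H10.5. The gene asg-1 has a divergent neighbour, mrps-15, 323 bp away.

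**Figure D4:**
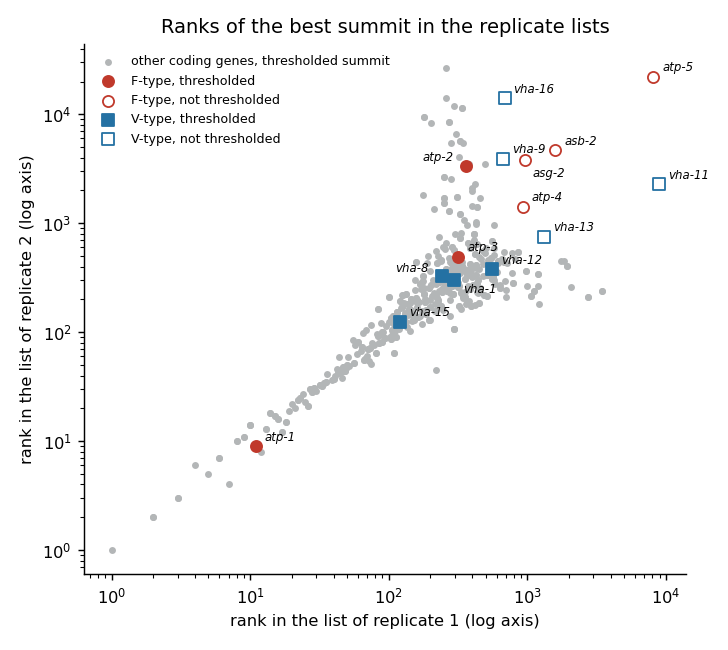
Rank of the best summit in the list of replicate 1 (x) against that of replicate 2 (y), both on log axes, for members found in both lists and, in grey, other coding genes with a thresholded summit. Of the members with a thresholded summit, atp-2 is far from the diagonal, at ranks 362 and 3346.

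The replicates located the stronger member peaks at nearly the same places. For the 7 thresholded members the summits in the replicate lists were 6 to 36 bp apart, with a median of 23 bp, where the median over 577 thresholded coding genes was 18 bp. The closest were those of atp-2 (6 bp), atp-1 and vha-1 (8 bp each), so the place at atp-2 was shared although its rank was not. For 8 further members with a summit in both lists but none in the thresholded one the median gap was 81 bp, with vha-13 at 8 bp and atp-5 at 931 bp. A summit in both lists was found for 15 of 29 members (51.7%), 7 of 9 F-type and 8 of 20 V-type, against 18.2% of coding genes. List by list, 8 F-type and 11 V-type genes had a summit in replicate 1, where 29.4% of coding genes did, and 7 and 12 in replicate 2, where 41.1% did. Over the 7 thresholded members Spearman's correlation of the ranks was 0.86, and over the 577 thresholded coding genes 0.77. Over the 8 members below the threshold it was 0.0, and over 3056 such coding genes 0.23. These describe genes that share the same libraries.

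Base composition and words under the members' summits are set beside the thresholded list at large and beside promoter summits below the threshold, with no test. The 101 bases around the summits of the 7 thresholded members held a median of 52.5% G and C, against 48.5% (quartiles 42.6 and 53.5%) for 384 other thresholded promoter summits and 33.7% for 8717 promoter summits below the threshold. The leading words were taken as those whose share among the other thresholded promoter summits exceeded that among summits below the threshold the most, without the members. They were CGAGAC (22.1% against 3.2%), ACGCAG (20.6% against 3.2%), GCGCAC (20.1% against 2.8%), GAGACC (20.1% against 3.2%), GCGAGA (20.6% against 3.8%) and ACCGTA (19.3% against 3.2%), each counted on both strands. Of these, GCGAGA overlaps CGAGAC and GAGACC.

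All 7 thresholded members held at least 1 of these 6 words, as did 61.7% of the other thresholded promoter summits and 15% of those below the threshold. The words are rich in G and C: among summits with at least 45% G and C, a limit chosen after seeing the data, the shares were 73.5% and 34.3%. The word ACGCAG or its reverse complement was found at 4 members, atp-3, vha-1, vha-12 and vha-15. The 7-base word CGAGACC, joined from overlapping words after the data were seen, was found at 3 members, atp-2, vha-8 and vha-15, against 14.8% of other thresholded and 1.5% of sub-threshold promoter summits. At 45% G and C or more, which all 7 members reached, these shares were 20.6% and 3.9%. At atp-1, the strongest member, the only leading word was ACCGTA. Of the 15 members with a pooled summit below the threshold 4 held a leading word at it, namely asg-2, atp-4, vha-9 and vha-16, and none held CGAGACC. A match of letters is no shown binding site.

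Of a set of 6 other promoter words, only GAGAGA and GGGCGG were found at thresholded members. The E-box CACGTG, the core of the sites of TFEB-type factors that act on lysosomal genes in mammals, was found at 0 of 7 thresholded members, 3.4% of other thresholded and 1.7% of sub-threshold promoter summits. The GATA word TGATAA, the word TATAAA and the ETS core CCGGAA were also at 0 of 7. At the other thresholded summits their shares were 3.9, 4.7 and 0.8%. The words GAGAGA and GGGCGG were at 2 of 7 each, vha-8 and vha-15 for the first and atp-1 and atp-2 for the second, where 15.9% and 6.8% of the other thresholded and 7.2% and 2.7% of the sub-threshold promoter summits held them. For atp-1, GGGCGG was not found in the 500 bp before the 5' end either.

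Further genes of both enzymes fall outside the name rule. A list of 9 of them was looked at, all in the nuclear genome, and 2 had a thresholded summit. Genes of the mitochondrial genome were not in this list. The stronger by far was Y82E9BR.3, for the c subunit ring of the ATP synthase rotor, with 483 in replicate 1, 379 in replicate 2 and 864 pooled, at ranks 25, 23 and 25 and at -298 bp. It was thus second only to atp-1 among the 38 genes looked at. The gene R04F11.2, for subunit e, had 34.2, 23.15 and 55.57, at -62 bp. Below the threshold were mai-1 (40.76), a gene for the ATP synthase inhibitor, Y69A2AR.18 for the gamma subunit (38.94), hpo-18 for epsilon (34.4), F58F12.1 for delta (24.5), mai-2 (19.49) and R53.4 for subunit f (13.64). The neuronal V-ATPase a subunit gene unc-32 had no pooled summit in its window and 10.93 in replicate 2.

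The respiratory chain, which builds the proton gradient that the ATP synthase spends, stood at a like share. Of 62 genes matched by names used for complexes I to IV, 14 had a thresholded summit (22.6%). The highest pooled signals were 249 at cox-5A and 158 at cox-5B, both of complex IV, and 116 at ndua-8 of complex I. The others were cox-6B and nduc-2 with 1 shared peak at 93.75, ndub-8 at 92.75, cox-4 at 65.31, mev-1 at 62.96, cyc-1 at 62.73, nuo-1 at 61.39, cox-14 at 60.31, ndua-2 at 53.12, nduf-11 at 49.8 and nduv-3 at 45.96. As at vha-1 and vha-8, the summits of ndua-8, cox-6B, nduc-2, mev-1, ndua-2 and nduv-3 were nearer to the 5' end of another coding gene. The names also took in genes that are not for subunits, such as cox-14 for the assembly of complex IV and cyc-2.1 for cytochrome c. The genes of the mitochondrial genome are not among the 62, but they count among all protein-coding genes. Several had a thresholded summit, such as ND1 at ranks 42 and 46 in replicates 1 and 2. COX3 ranked 36 and 41 in the same order. The difference between the chain and the rotary ATPases was not tested.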

How the data were processed

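Peaks of the 2 replicates of the single group were used as deposited. Per the deposited records, the authors called peaks on each replicate and on both pooled, each time with a further input that is taken here to be the control named in the labels and was not analysed here, and derived the thresholded list by IDR. The sources used here do not name the aligner, the caller or the depth. Signal values are those the authors deposited for each peak, which is taken to be relative to that control. The score column of the deposited lists was not used, nor were the ce10 lists. Coordinates are ce11 (WBcel235), with Ensembl release 115 annotation and the RefSeq copy of the genome. The summit is at the centre of the peak for 99.6% of pooled peaks and 77.2% of thresholded ones, so positions are no finer than the caller gives. For each gene the strongest summit in its window was taken, with Python 3.11.15, numpy 2.4.6 and pandas 2.3.3. The code for the windows was checked on simulated summits planted inside them, and 200 of 200 were recovered among 19985 genes. This checks the code only and does not show how well peaks are given to genes. Subunit roles are general knowledge.

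Counts are set beside all protein-coding genes and carry no test, since there is 1 group and genes are not replicates. Members and lists were chosen with earlier results of these data known. All members are named. The respiratory chain genes were matched by name. Alternatives covered the window, the position taken for a peak, the 5' ends, the stronger part of the list and each replicate alone.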

Additional observations from a re-analysis of the deposited data

How the results depend on the processing

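Windows of 500 or 2000 bp upstream, the peak's midpoint, any overlap and the most upstream 5' end gave 3 F-type genes and 4 V-type genes, or 5 V-type genes with 2000 bp, where vha-2 was added. With the nearest 5' end only, 2 V-type genes were counted, without vha-1 and vha-8. The share of all coding genes was then 1.91% and the members' median position -224 bp, against -282 bp. Among the stronger 246 peaks 1 F-type gene (atp-1) and 1 V-type gene (vha-15) were left, 2 in all, with 1.5% of coding genes and a median of -145 bp. With each replicate's strongest 491 peaks, F-type counts ran from 1 to 3, V-type from 3 to 4, all members from 5 to 6, the share of coding genes was 2.77% in both cases and the median position ran from -340 to -269.5 bp. Replicate 2 alone left out atp-2 and atp-3, the latter at rank 492, and replicate 1 alone left out vha-12. With the 9 further ATPase genes, added after seeing the data, 9 of 38 genes had a thresholded summit. The signals of the 7 genes were the same under every alternative that kept them in the thresholded list. These alternatives only reassign or drop listed peaks and leave each peak's signal as it is, so this sameness shows nothing about robustness. No paired analysis was possible because the design holds a single group. Depth is unknown, so a gene without a peak is one where none was listed.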

Other observations

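The same words were looked up in the 500 bp before the most upstream 5' end of each gene, on both strands. These windows take in the summits of the members with a thresholded peak, so matches at these members partly repeat those described at the summits. For ACGCAG, the genes counted here include atp-3, vha-1, vha-12 and vha-15, which also held it at the summit. The same holds for GCGCAC at vha-12, and for the overlapping words at atp-2, vha-8 and vha-15. The word GAGACC was in 4 of 9 F-type genes (44.4%) and 9 of 20 V-type genes (45%), against 12.9% of 19984 coding genes. For CGAGAC the counts were 4 of 9 and 7 of 20, against 13%, and for the overlapping GCGAGA 4 of 9 and 7 of 20, against 14.4%. The remaining leading words were ACGCAG at 2 of 9 and 4 of 20, against 12.6%, and ACCGTA at 1 of 9 and 4 of 20, against 13.9%. GCGCAC was at 0 of 9 and 4 of 20, against 8.9%. Among the F-type genes with CGAGAC were asb-1, asb-2 and atp-4, none of which had a thresholded summit. Among the V-type genes with it were vha-13, vha-14, vha-17 and vha-19, which had none either. The word GAGAGA was in 11 of 20 V-type genes (55%) and 2 of 9 F-type genes, against 30% of coding genes. The E-box CACGTG was in 2 of 20 V-type genes, vha-3 and vha-4, and in 0 of 9 F-type genes, against 8.6%. TATAAA was in 10 of 20 V-type and 6 of 9 F-type genes, against 54.1%, and TGATAA in 9 of 20 and 3 of 9, against 43.7%. CCGGAA was in 1 of 20 and 1 of 9, against 14.8%, and GGGCGG in 2 of 20 and 2 of 9, against 10.9%. These counts carry no test.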
